A study of Mus musculus with 8 samples.

Results

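The genes described here are 8 parts of the machinery that starts or restrains programmed cell death: Fas, Casp8 and Cflar at the cell surface receptor, Apaf1 and Casp9 downstream of mitochondria, and the inhibitor of apoptosis proteins Xiap, Birc2 and Birc3. Every array probe that was not a control and that carried a RefSeq transcript of these genes was taken, which gave 10 probes of 55681, with 3 probes for Cflar and 1 for each other gene. All 10 probes were well above background on all 8 arrays, so all 8 genes were among the 21251 genes tested.

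RNA came from Ly6G+ cells of mouse bone marrow, sorted with magnetic beads, from 4 wild-type (WT) samples and 4 samples lacking the transcription factor ATF3 (ATF3 KO), all on a C57BL/6 background. ATF3 belongs to the ATF/CREB family, binds the cyclic AMP response element (CRE) and is induced by stress. The label of WT replicate 1 calls it unmanipulated, whereas the labels of the other 7 samples name a culture in methylcellulose with 4-OHT that the design text does not mention, so the labels conflict. Neither the construct of the knockout nor the age or number of animals is given, and without separate animals stated, p-values measure only the spread between these samples.

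Neutrophils live for a short time and die mostly by apoptosis, which makes them a common cell type in which to study these genes. Ligands of the TNF family bind death receptors such as Fas, which recruit the adaptor FADD and caspase-8. The Cflar protein, c-FLIP, resembles caspase-8 without its protease activity and holds it in check. In the mitochondrial route, released cytochrome c assembles APAF1 into the apoptosome, which activates caspase-9, and XIAP blocks caspase-9 and the executioner caspases. The Birc2 and Birc3 proteins, cIAP1 and cIAP2, are ubiquitin ligases of TNF receptor complexes and steer their signal towards survival.

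No member gene differed between the genotypes beyond the threshold of the test. A level here is the log2 of a probe's signal after subtraction of its array's 75th percentile, and differences are ATF3 KO minus WT from limma with Benjamini-Hochberg adjustment over all genes tested. Of the 8 members 0 passed an adjusted p under 0.05 and 0 had an unadjusted p under 0.05, against 0.447% and 23.9% of all genes. The adjusted p ranged from 0.234 to 0.486 and the differences from -0.25 (Apaf1) to 0.11 (Cflar). On the linear scale this is a range from -15.8% to 7.72%. The 95% intervals of the 8 differences together spanned -0.55 to 0.33, and no interval reached a change by a factor of 1.5 in either direction. In 7 of the 8 genes the difference was below 0, as in 65.5% of all genes. The median difference was -0.20 over the members and -0.11 over all genes. Of the 21251 genes tested, 13087 had a gene symbol, and the rest stand for an accession or a probe alone. Over the 10466 genes tested that have a promoter in the RefSeq table the median was -0.15, nearer to that of the members.

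The signal on each array and the number of arrays both limit the precision here. WT arrays had a 75th percentile of 186 ± 33.8 processed signal units with 51.0 ± 3.67% of probes above background, and ATF3 KO arrays one of 141 ± 21.3 with 49.1 ± 3.29% (SD, n = 4 each). Among 12 neutrophil markers tested, all were above background on every array, and no probe was matched to Ly6g. The Atf3 probe read 0.69, 0.82, 0.75 and 0.65 in WT and 1.53, 1.00, 1.41 and 1.02 in ATF3 KO, so every sample labelled as a knockout was above every WT sample (difference 0.51, SE 0.14, limma adjusted p = 0.121). Its place relative to the deletion is not given, so it does not check the genotype, and WT and ATF3 KO are the genotypes as labelled throughout. All WT arrays lay in slide row 1 and all ATF3 KO arrays in slide row 2 of 1 slide, so row and genotype cannot be told apart. Among all genes 95 passed, 78 of them higher and 17 lower in ATF3 KO (82.1% higher, against 62.3% with normexp background correction and 71.0% with quantile normalization). The balance turned round without WT replicate 1 (3 of 9 genes higher) and without a filter (4 of 10), and was 53.8% higher without WT replicate 3.

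Fas, the receptor of the group, had levels of 4.60, 4.65, 4.48 and 4.49 in WT replicates 1 to 4 and of 4.25, 4.15, 4.62 and 4.23 in ATF3 KO replicates 1 to 4. The 3 ATF3 KO replicates 1, 2 and 4 lay below every WT array, while ATF3 KO replicate 3 lay within the WT range. The difference was -0.24 (SE 0.12, 95% interval -0.52 to 0.03, limma adjusted p = 0.242), and without ATF3 KO replicate 3 it was -0.35 (adjusted p = 0.079). It was -0.19 without ATF3 KO replicate 2 (limma adjusted p = 0.452). With quantile normalization and with the percentile over detected probes it was -0.09, and with the deposited table -0.10 (limma adjusted p = 0.513, 0.599 and 0.463). The probe was spotted on the array at 2 places, and its spots were averaged.

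Casp8, the initiator caspase that Fas recruits, had levels of 2.92, 2.98, 2.78 and 2.88 in WT and of 3.03, 2.54, 2.90 and 2.32 in ATF3 KO. The ATF3 KO samples held both the highest and the lowest of the 8 values, and their SD was 0.33 against 0.08 in WT. The difference of -0.20 (SE 0.16, 95% interval -0.55 to 0.16, limma adjusted p = 0.424) was -0.31 when ATF3 KO replicate 1 was left out and -0.07 when replicate 4 was. With the deposited log2 table it had the other sign (0.03).

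Cflar was the only member whose difference lay above 0, and only at its brightest probe. That probe, on transcript NM_009805, read 2.55, 2.60, 2.72 and 2.42 in WT and 2.67, 2.73, 2.75 and 2.57 in ATF3 KO. The groups overlapped, with 2 ATF3 KO arrays above all WT arrays. The difference was 0.11 (SE 0.10, 95% interval -0.12 to 0.33, limma adjusted p = 0.486). It was 0.25 with quantile normalization, 0.26 with the percentile over detected probes and 0.27 with the deposited table (limma adjusted p = 0.175, 0.206 and 0.112). It was 0.03 with median scaling and 0.06 both with normexp background correction and without WT replicate 4 (limma adjusted p = 0.906, 0.716 and 0.737). The other Cflar probes, both on transcript NM_207653, differed by -0.07 (SE 0.11, 95% interval -0.32 to 0.18) and -0.08 (SE 0.15, 95% interval -0.41 to 0.25), with limma adjusted p = 0.699 and 0.736 over all 27948 probes tested. Of the 10 member probes 0 passed in that fit, against 0.208% of all probes. The 2 probes on NM_207653 kept nearly the same ratio to each other within an array (change 0.01, exact permutation p = 0.886). Against the NM_009805 probe they were lower in ATF3 KO by -0.18 (exact permutation p = 0.143) and -0.19 (exact permutation p = 0.314), differences within the spread of the arrays. The mean of the 3 probes differed by -0.01.

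**Figure D1:**
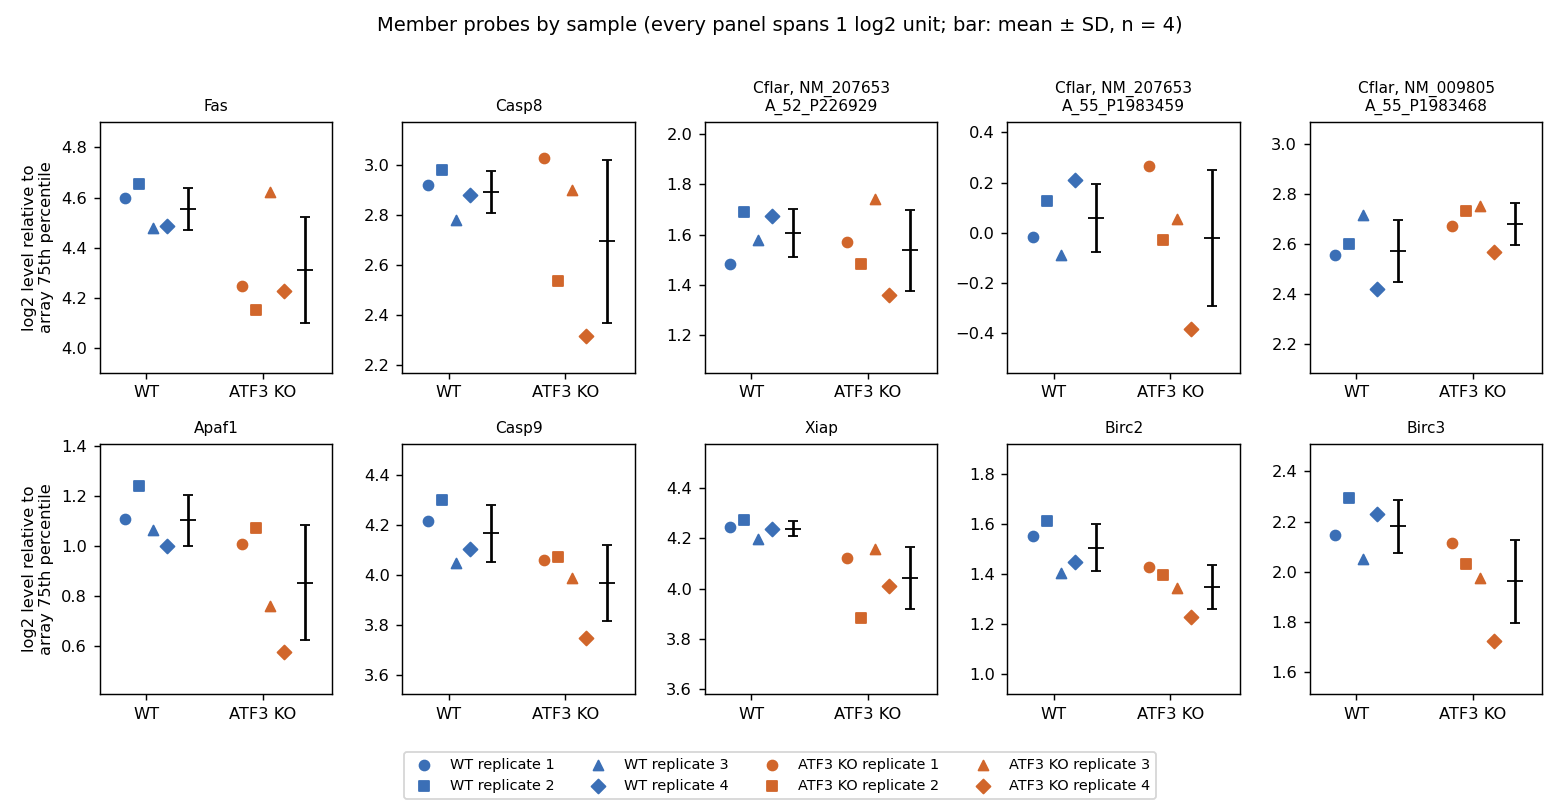
Level of each of the 10 member probes in each sample, as log2 signal minus its array's 75th percentile (y axis, every panel 1 log2 unit high), with WT in blue, ATF3 KO in orange and 1 symbol per replicate number; black bars are the mean and SD (n = 4). Xiap is the panel without overlap between the groups, Fas has ATF3 KO replicate 3 at 4.62 beside the WT arrays, and ATF3 KO replicate 4 is the lowest array in 7 panels.

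Apaf1 encodes the scaffold of the apoptosome. Its levels were 1.11, 1.24, 1.06 and 1.00 in WT and 1.01, 1.07, 0.76 and 0.58 in ATF3 KO. ATF3 KO replicates 1 and 2 lay within the WT range and replicates 3 and 4 below it. The difference was -0.25 (SE 0.13, 95% interval -0.54 to 0.04, limma adjusted p = 0.253), and without ATF3 KO replicate 4 it was -0.16. Casp9, the caspase that the apoptosome activates, had levels of 4.21, 4.30, 4.05 and 4.10 in WT and of 4.06, 4.07, 3.99 and 3.75 in ATF3 KO. Here too 2 ATF3 KO arrays lay within the WT range and 2 below it (difference -0.20, SE 0.11, 95% interval -0.45 to 0.05, limma adjusted p = 0.276), and without ATF3 KO replicate 4 the difference was -0.13.

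Xiap, the inhibitor of caspase-9 and of the executioner caspases, was the 1 member of 8 whose groups did not overlap, against 15.1% of all genes. Its levels were 4.25, 4.27, 4.20 and 4.24 in WT and 4.12, 3.88, 4.16 and 4.01 in ATF3 KO, so every ATF3 KO array was below every WT array (exact permutation p = 0.0286, two-sided, the smallest that 4 against 4 allows). The difference of -0.20 (SE 0.10, 95% interval -0.41 to 0.02) did not pass the limma test across all genes (adjusted p = 0.234). Its SD in WT was 0.03, and 5.61% of all genes had a smaller pooled SD than Xiap. Relative to the median of all genes its difference was -0.09, and 69.1% of genes lay farther from that median.

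Birc2 and Birc3 lie next to each other on chromosome 9, with no other protein-coding gene between them in the RefSeq table. Birc2 had levels of 1.55, 1.61, 1.41 and 1.45 in WT and of 1.43, 1.40, 1.34 and 1.23 in ATF3 KO. Birc3 had levels of 2.15, 2.30, 2.05 and 2.23 in WT and of 2.11, 2.03, 1.97 and 1.72 in ATF3 KO. In each gene 3 ATF3 KO arrays lay below every WT array and replicate 1 overlapped with them. The difference was -0.15 for Birc2 (SE 0.10, 95% interval -0.37 to 0.06, limma adjusted p = 0.315) and -0.22 for Birc3 (SE 0.11, 95% interval -0.47 to 0.03, limma adjusted p = 0.251), and without ATF3 KO replicate 4 that of Birc3 was -0.14. The ratio of Birc2 to Birc3 within an array changed by 0.07 (exact permutation p = 0.314). Casp8 and Cflar are likewise adjacent protein-coding genes, on chromosome 1, and their ratio is given further on.

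**Figure D2:**
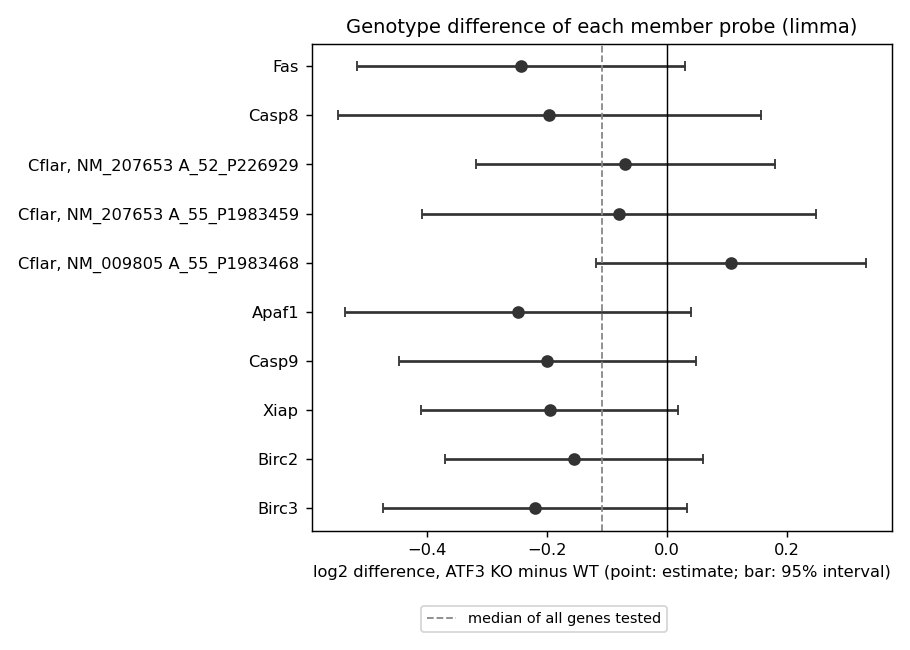
Difference between the genotypes for each member probe (x axis, log2, ATF3 KO minus WT) with its 95% interval from limma; the dashed line is the median of all genes (-0.11) and the solid line is 0. All 10 intervals include 0, and the NM_009805 probe of Cflar is the only estimate above 0.

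The promoters of the members are shown because the deleted factor is a DNA-binding protein whose consensus CRE is TGACGTCA. Sequences are from RefSeq, build GRCm38.p6, from 250 bases before to 50 bases after an annotated start, and all 8 genes matched, with 11 promoters in all. Both strands were searched for the CRE, for its core TGACG, which every CRE match also holds, for the AP-1 site TGANTCA, for the composite site TGATGNAA of CHOP and ATF4 and for the NF-kappaB site. Capitals mark matches to any of these. The first line holds the only CRE among the members, the second the only AP-1 match, the third the core in Xiap, and the fourth the neighbour of Birc2, which has no match.
Birc2, chr9:7837008-7837307, minus strand: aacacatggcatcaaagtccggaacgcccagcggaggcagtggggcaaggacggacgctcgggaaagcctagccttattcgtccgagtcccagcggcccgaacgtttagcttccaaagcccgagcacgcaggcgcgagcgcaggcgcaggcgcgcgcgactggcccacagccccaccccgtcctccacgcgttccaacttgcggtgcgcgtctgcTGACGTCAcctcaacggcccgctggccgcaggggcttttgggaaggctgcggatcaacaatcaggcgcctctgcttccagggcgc
Fas, chr19:34290409-34290708, plus strand: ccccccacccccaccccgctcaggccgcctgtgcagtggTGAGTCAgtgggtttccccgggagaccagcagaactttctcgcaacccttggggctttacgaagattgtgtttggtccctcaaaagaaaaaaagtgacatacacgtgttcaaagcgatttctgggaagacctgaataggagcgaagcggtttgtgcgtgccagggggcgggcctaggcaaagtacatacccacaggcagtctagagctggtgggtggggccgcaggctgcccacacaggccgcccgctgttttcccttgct
Xiap, chrX:42068148-42068447, plus strand: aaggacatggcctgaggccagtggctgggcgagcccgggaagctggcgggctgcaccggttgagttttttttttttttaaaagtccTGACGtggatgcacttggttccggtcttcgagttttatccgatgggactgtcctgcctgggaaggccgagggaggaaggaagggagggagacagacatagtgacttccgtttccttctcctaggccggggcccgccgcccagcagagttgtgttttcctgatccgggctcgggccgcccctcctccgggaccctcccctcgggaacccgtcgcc
Birc3, chr9:7873121-7873420, minus strand: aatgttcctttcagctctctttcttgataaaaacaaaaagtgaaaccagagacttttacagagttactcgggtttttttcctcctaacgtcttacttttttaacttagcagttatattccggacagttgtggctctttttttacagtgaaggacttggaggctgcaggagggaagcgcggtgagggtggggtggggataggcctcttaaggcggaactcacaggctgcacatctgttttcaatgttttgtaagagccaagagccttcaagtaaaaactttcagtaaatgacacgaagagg

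The CRE of Birc2 starts at position -35 from the annotated start and is a full palindrome, which 1.79% of the 32851 promoters hold. The core was found in a further promoter of Birc2 and in 1 of the 3 promoters of Xiap, against 20.8% of all promoters. The AP-1 match of Fas, at position -211, has a counterpart in 7.81% of all promoters. The composite site (3.97% of all promoters) and the NF-kappaB site (1.63%) had no match in the 11 windows. Among all genes tested that have a promoter in the table, 348 of 10466 had a CRE match. Of these 348 genes, 0 rose and 0 fell by the limma test, and 74 had an unadjusted p under 0.05 (21.3%). Over all 21251 genes tested the shares were 0.447% and 23.9%, so a count of 0 among 348 tells little. The median difference of the 348 genes was -0.15, the same as that of all 10466 genes (-0.15). With an AP-1 match there were 735 genes, of which 1 rose and 1 fell, with 180 at an unadjusted p under 0.05 (24.5%) and a median of -0.14. A match is only a match of letters, and binding was not measured.

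Base composition varied among the members. The Apaf1 promoter was 74.7% G and C with 46 CpG dinucleotides, and that of Casp9 66.0% with 28. The promoters of Xiap ranged from 37.7% to 61.7%. Those of Casp8 (42.0%, 5 CpG) and Birc3 (43.0%, 7 CpG) were the lowest among genes with 1 promoter, against medians of 52.7% and 7 over all promoters.

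Levels were also compared array by array. ATF3 KO replicate 4 was the lowest of the 8 arrays for 7 of the 10 member probes, against 32.2% of all genes. The share is over genes at their brightest probe, whereas the count includes the dimmer probes of Cflar. At the brightest probe it was the lowest array for Casp8, Apaf1, Casp9, Birc2 and Birc3, and not for Fas, Cflar or Xiap. ATF3 KO replicate 4 also had the lowest 75th percentile of the signal (113) and the lowest share of probes above background (46.0%), and the part of these in the member values was not tested. As a description over the 8 arrays, which share scaling, Pearson's r was 0.98 between Casp9 and Birc2, 0.93 between Apaf1 and Casp9, 0.92 between Birc2 and Birc3 and 0.87 between Fas and Xiap. The lowest among members other than Cflar were 0.32 between Fas and Apaf1 and 0.40 between Apaf1 and Xiap. For Cflar the highest r with any other member was -0.03. The gene most like a member, out of 11698 others with a symbol and above background on all arrays, was Syap1 for Fas (r = 0.99 over 8 arrays), Cox14 for Casp8 (0.99), Fyco1 for Apaf1 (0.98), Cog6 for Casp9 (0.99), Uqcr11 for Xiap (0.99), Gm1943 for Birc2 (0.99), Phospho1 for Birc3 (0.99) and Rps4l for Cflar (0.87). These 8 were picked as the highest of many, so an r this high is no measure of a link, and none of the 8 passed the limma test (adjusted p from 0.141 to 0.452).

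Because a common scaling moves all members alike, their ratios within an array were also compared. A constant subtracted from a whole array cannot change them, but quantile normalization can. Cflar, at its NM_009805 probe, was higher in ATF3 KO relative to each of the 7 other members, by 0.26 (against Birc2) to 0.36 (against Apaf1) on the log2 scale. Among the 7 others no ratio differed by more than 0.0935. The direction for Cflar follows from its being the only difference above 0. Its probes on NM_207653 differed by -0.07 and -0.08, nearer to the other members than the NM_009805 probe. Ratios of those probes to the other members were not compared. Over all 28 pairs the groups did not overlap in 2, Cflar to Apaf1 and Cflar to Xiap. Of the 7 ratios with Cflar this is 2, against 15.5% when every other gene tested is set against Cflar. The same share was 9.56% against Apaf1, with 1 of 7 ratios without overlap, and 11.5% against Xiap, also with 1 of 7. It was 7.04% against Fas, 3.83% against Casp8, 8.29% against Casp9, 9.11% against Birc2 and 8.69% against Birc3, each with 0 of 7. The ratio of Cflar to Apaf1 differed by 0.36 (SD 0.13 in WT and 0.19 in ATF3 KO, n = 4, exact permutation p = 0.0286) and that of Cflar to Xiap by 0.30 (SD 0.14 in both, n = 4, exact permutation p = 0.0286), but neither passed adjustment over the 28 pairs (adjusted p = 0.32). The ratio of Casp8 to its neighbour Cflar differed by -0.30 (exact permutation p = 0.143, adjusted p = 0.571 over the 28 pairs). Without WT replicate 3 the number of pairs without overlap was 7, and without ATF3 KO replicate 1 or ATF3 KO replicate 3 it was 4. Those 7 pairs are the ratios with Cflar, which share its probe. Smaller groups are separated more easily, and the share over all genes was not computed with a sample left out. These counts therefore have no background to be read against.

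**Figure D3:**
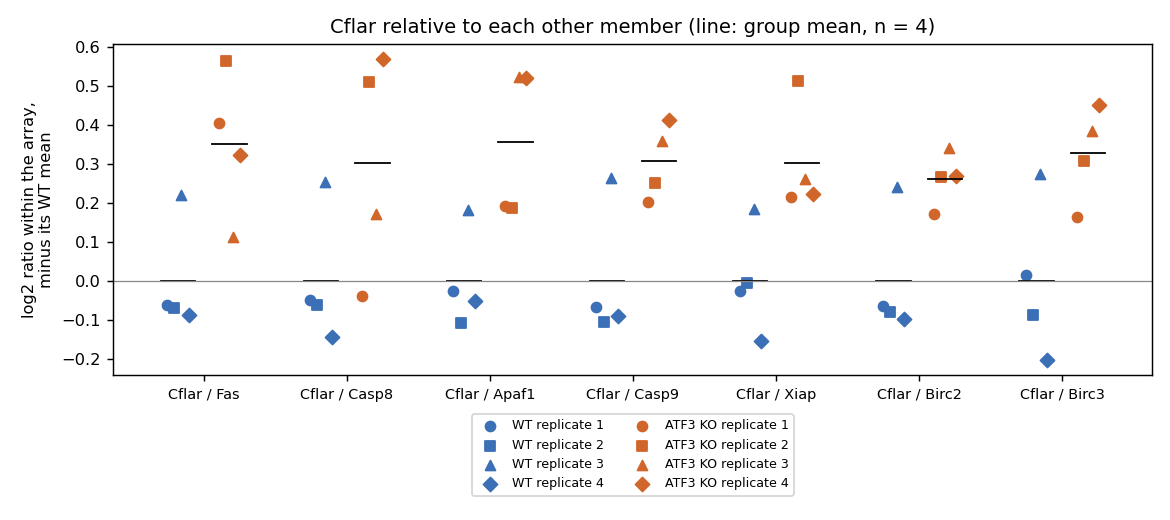
Log2 ratio of Cflar (NM_009805 probe) to each other member within an array, minus the mean of that ratio in WT (y axis), for 4 WT (blue) and 4 ATF3 KO (orange) arrays; black lines are group means. The ATF3 KO means lie 0.26 to 0.36 above WT, and WT replicate 3 lies apart from the other WT arrays in every ratio.

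The scaling decided how far below 0 the members lay. The median difference of all genes moved from -0.18 with median scaling to 0.04 when the percentile came from the probes detected on every array. Relative to that median, under the main scaling, the members lay at -0.14 (Apaf1 and Fas), -0.11 (Birc3), -0.09 (Casp9, Casp8 and Xiap), -0.05 (Birc2) and 0.22 (Cflar). From 36.2% (Cflar) to 83.2% (Birc2) of all genes lay farther from the median than the member did. Relative to the median, Fas, Apaf1, Birc2, Birc3 and Xiap lay below 0 and Cflar above 0 under the main setting and all 19 alternatives. Casp8 (up to 0.06) and Casp9 (up to 0.02) changed side. Median scaling, the percentile over detected probes, trend and robust variances and the replicate block left each position as under the main setting. These therefore could not change a side. With quantile normalization Birc2 lay at only -0.0004 and Xiap at -0.0044.

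**Figure D4:**
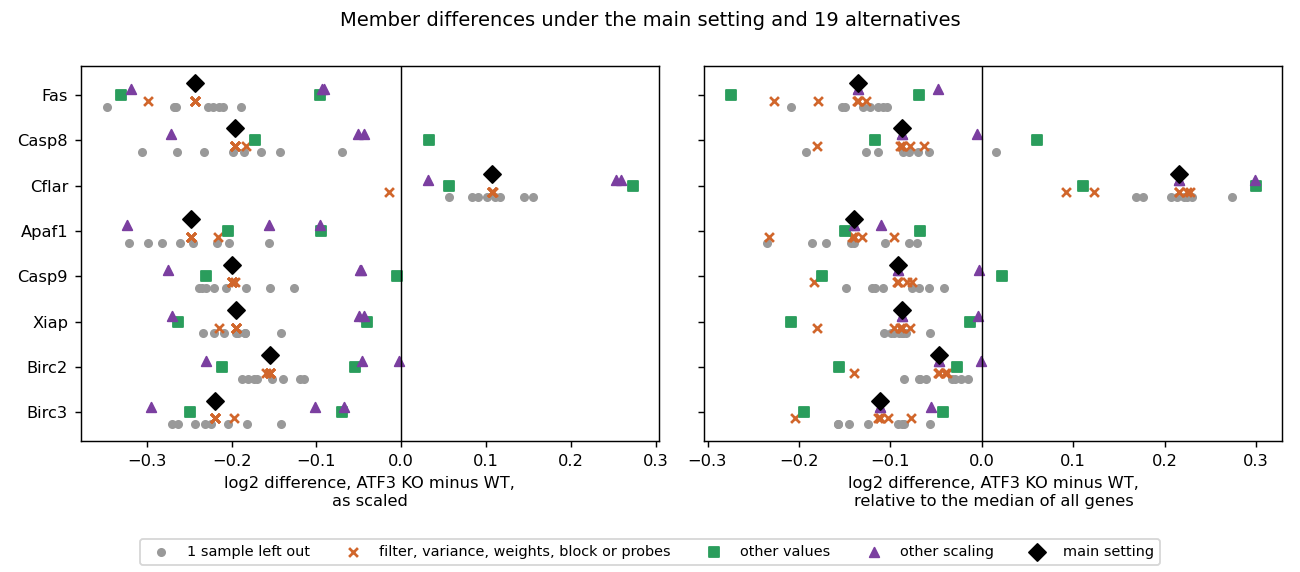
Difference of each member (x axis, log2, ATF3 KO minus WT) under the main setting (black) and 19 alternatives, as scaled on the left and relative to the median of all genes on the right. With quantile normalization, the percentile over detected probes or the deposited table, the 7 members other than Cflar lie between -0.16 and 0.03 as scaled, closer to 0 than under the main setting.

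Other genes of the same pathways, from 5 lists, mostly did not pass either. Of 74 genes listed 72 were tested, 0 rose and 1 fell, against 0.367% of all genes that rose and 0.08% that fell. At an unadjusted p under 0.05 there were 15 of 72 (20.8%, against 23.9% of all genes), 13 of them lower. The groups did not overlap in 14 of 72 (19.4%, against 15.1% of all genes). In such bulk samples fewer cells of a type and less RNA per cell cannot be told apart.

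The gene that fell was Traf5, an adaptor of TNF family receptors, in the list of the TNF receptor signalling complex around Birc2 and Birc3. Its levels were 1.66, 1.68, 1.56 and 1.48 in WT and 1.03, 0.80, 0.94 and 0.86 in ATF3 KO, with a clear gap between the groups. It differed by -0.69 (SE 0.10, limma adjusted p = 0.0345), which is more than the spread between replicates (SD 0.09 and 0.10, n = 4). The call was lost without WT replicate 1, 2 or 3 and without ATF3 KO replicate 2 or 4 (adjusted p from 0.0687 to 0.106), with median scaling (0.0638), without a filter (0.143) and with a replicate block (0.076). Traf5 is separated from Atf3 on chromosome 1 by 9 protein-coding genes. The other 19 genes of this list did not pass, and its median was -0.19. Tnip1, singled out after its values were seen, differed by -0.67 (SE 0.31, limma adjusted p = 0.218), with 3.96 in ATF3 KO replicate 1 and 5.18 to 5.87 in the other arrays.

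Of 21 death receptors, ligands and adaptors 0 passed, with 5 at an unadjusted p under 0.05 and a median of -0.18. Faim, an inhibitor of Fas-induced death, had the smallest p. WT samples had a level of 1.13 ± 0.04 and ATF3 KO samples one of 0.65 ± 0.14 (SD, n = 4 each), without overlap between the groups (difference -0.48, SE 0.10, limma adjusted p = 0.0802; 0.046 with trend and robust variances). Tnfrsf10b, the receptor of the ligand TRAIL, differed by 0.45 (SE 0.14) and the death receptor Tnfrsf21 by -0.46 (SE 0.14), with limma adjusted p = 0.142 and 0.143. The Fas ligand gene, Fasl, was not well above background on any array and was not tested.

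Of the 8 other caspases 0 passed, with 2 at an unadjusted p under 0.05 and a median of -0.12, near that of all genes. Casp6, an executioner caspase, differed by -0.27 (SE 0.10, limma adjusted p = 0.17) and Casp2 by -0.15 (SE 0.09, limma adjusted p = 0.304).

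Of 15 apoptosome and IAP partner genes 0 passed, with 3 at an unadjusted p under 0.05 and a median of -0.13. Birc6, a large member of the inhibitor of apoptosis family, differed by -0.31 (SE 0.09, limma adjusted p = 0.135), without overlap between the groups. The chaperone gene Hspa4 differed by -0.29 (SE 0.11, limma adjusted p = 0.168). Naip5, a bacterial flagellin sensor with BIR domains like those of Xiap, differed by 0.39 (SE 0.13, limma adjusted p = 0.154), and its probe may also read near-identical Naip copies. Of the 8 substrates and inhibitors of executioner caspases 0 passed and 0 had an unadjusted p under 0.05 by limma. The nuclear lamin gene Lmnb1 differed by 0.28 (SE 0.13), Dffa, the inhibitor of the caspase-activated nuclease, by -0.22 (SE 0.13) and the kinase gene Rock1 by -0.17 (SE 0.11).

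**Figure D5:**
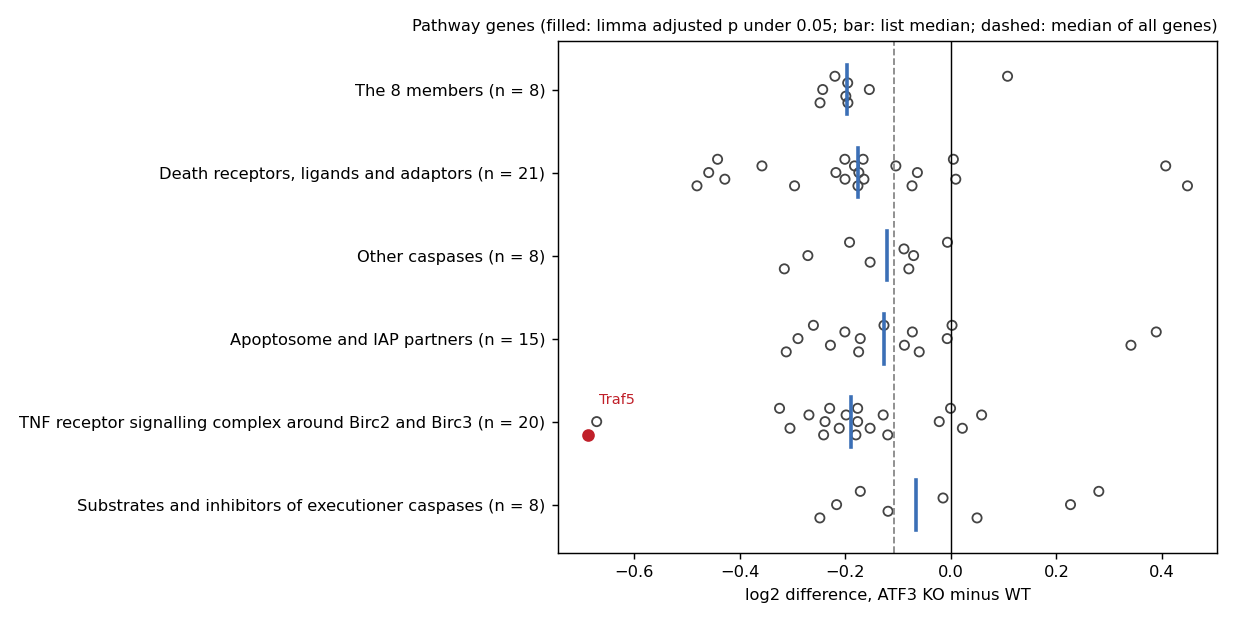
Difference of each tested gene (x axis, log2, ATF3 KO minus WT) for the 8 members and 5 pathway lists; the filled red point passed an adjusted p under 0.05, blue bars are list medians and the dashed line is the median of all genes. Traf5, at -0.69, is the only filled point, and the list medians lie between -0.20 and -0.07.

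Marker lists of cell types were scored beside these values. Scores of the B lineage, dendritic cell and neutrophil lists did not overlap between the groups, and those of the other lists did. The score of an array is the mean deviation of the list's genes from their own means, minus the median deviation of all genes. For 11 B lineage markers it was -0.63 to -0.20 in WT and 0.20 to 0.64 in ATF3 KO. Of these markers 0 passed the limma threshold and 9 had an unadjusted p under 0.05, against 23.9% of all genes. For 6 dendritic cell markers the score was -0.39 to -0.12 in WT and 0.01 to 0.51 in ATF3 KO, with 1 risen (Ccr7). At an unadjusted p under 0.05 by limma 4 of these were higher, Siglech, Cd74, H2-Eb1 and Ccr7. Any part of B lineage cells in their levels was not tested. Zbtb46 was the 1 lower (difference -0.45, SE 0.14, limma adjusted p = 0.136). For the 12 neutrophil markers the score was -0.21 to -0.02 in WT and 0.01 to 0.27 in ATF3 KO. Of these markers 0 passed the limma threshold and 5 had an unadjusted p under 0.05, all higher. These 5, S100a8, S100a9, Ltf, Camp and Csf3r, also read higher in WT replicate 4 than in WT replicate 1. S100a8 read 10.51 against 10.14 there and S100a9 10.83 against 10.43, on arrays with a 75th percentile of 151 and 215. Mpo, Elane, Mmp9 and Cxcr2 had differences below 0 (-0.10, -0.05, -0.27 and -0.09). The part of the scaling in the neutrophil score was not tested. The scores of monocytes, T and NK cells, erythroid cells, megakaryocytes and the eosinophil, basophil and mast cell list overlapped between the groups, with 1 gene risen in the last of these (Gata2, difference 0.75, SE 0.13, limma adjusted p = 0.0494), and the T and NK cell markers Cd8a, Klrb1c and Ncr1 were not above background on any array. The part of these cells in the member differences was not tested.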

How the data were processed

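RNA of 8 sorted samples was measured on Agilent arrays in 1 colour (Cy3), per the labels. The deposited scanner files hold spot intensity from Agilent Feature Extraction (10.9.1.1 per the file headers, 10.10 per the submitters' processing notes), and their processed intensity is background-subtracted and detrended within each array. A deposited series table holds log2 values whose normalization, centring and direction are not stated, with column medians from 6.13 to 6.15. Each of its columns correlated best with the log2 median signal of its own array.

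Control spots and outlier spots (98 to 159 per array) were left out, spots of a probe were averaged, and each array's 75th percentile was subtracted from the log2 processed signal. Probes above background on at least 4 of 8 arrays were kept, the brightest probe stood for a gene, and limma 3.58.1 in R 4.3.3 tested genotype with a threshold of 0.05 on the adjusted p. The step was tested on simulated data with independent noise for each gene. The simulation held no effect shared by the genes of an array, so it does not cover such effects. Symbols came from RefSeq accessions of GRCm38.p6 without versions (27235 of 55681 probes matched). The headers name another build (mm9), so the gene table served for names and neighbours only. Exact permutation tests are two-sided.

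The members and lists were chosen with earlier results of these data known. The genes named are the 8 members, Atf3, in each list every gene past the threshold and otherwise the 3 with the smallest p, and for each member the gene with the highest Pearson correlation. One gene that this rule names is not reported here. The ratios between members and the promoter search were added after seeing the data. The alternatives were normexp (on the median signal, since the files used here have no mean signal), other scalings and filters, other variance models, weights per array, a replicate block, the mean of a gene's probes, the deposited table and leaving out each sample. Same-numbered samples did not deviate together (correlations from -0.27 to 0.19), so the numbers were not taken as pairs.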

Additional observations from a re-analysis of the deposited data

Results flagged for a closer look

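Among 46 groups of 4 values examined for the member probes and the named pathway genes, 1 held a value far from the other 3, where chance gives about 1 in 20 groups. Birc6 read 0.81 in ATF3 KO replicate 3, against 0.92, 0.92 and 0.93 in the other ATF3 KO samples. The gap is small beside the WT range of this gene, 1.11 to 1.35.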

How the results depend on the processing

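The 4 arrays per genotype limit these results. Under the main setting 0 member genes and 0 member probes passed, nor did any under the 19 alternatives run for genes or under those run for probes (the same except the mean of a gene's probes), and the lowest adjusted p of any member was 0.079, for Fas without ATF3 KO replicate 3. The sign of a member changed in 2 cases: Casp8 was 0.0325 with the deposited log2 table, and Cflar was -0.0139 with the mean of all kept probes. At an unadjusted p under 0.05 by limma the count of members, 0 in the main setting, was less stable. It was 3 with normexp background correction, where 6488 of 21251 genes reached it, and 0 to 2 under the other alternatives. The replicate block changed no member's call, and with it 72 genes in all and 0 pathway genes passed. The count of all genes past the threshold, 95 in the main setting, was 257 with normexp background correction, 31 with quantile normalization, 217 with median scaling, 44 with the percentile over detected probes, 10 with no filter, 192 with trend and robust variances, 207 with array weights and 149 with the deposited table. Leaving out 1 sample gave 9 to 234: for WT, 9 without replicate 1, 36 without 2, 13 without 3 and 59 without 4, and for ATF3 KO, 20 without replicate 2, 234 without 3 and 29 without 4. The count of pathway genes past the threshold, 1 in the main setting, was 0 with median scaling and with no filter, 2 with trend and robust variances, and 0 to 1 with 1 sample left out. The pairs of members without overlap numbered 2 to 7 with 1 sample left out, for which no share over all genes was computed. Why these counts moved was not tested.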
